A study of Mus musculus with 4 samples.

Results

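The enzymes and binding proteins that write, erase and read DNA methylation, Polycomb marks and histone acetylation or methylation were examined in mouse fibroblasts. A Ctcfl transgene was repressed in the control samples and induced in the others. The members were fixed by name as 58 genes, and 55 of them could be measured among 19938 genes on the arrays. The other 3 gave no value of their own: Tdg and Cbx6 lay only on probe sets shared with other genes, and Suv39h1 was not named among the probe sets used. CTCFL, also called BORIS, is a germline paralog of the insulator protein CTCF and binds similar DNA. The cells were NIH3T3, an established mouse fibroblast line, from a single stable clone called p19 that carries the integrated constructs pBI-EGFP-FLAG-mCtcfl and pTA-N in all samples. Doxycycline at 2 µg/ml kept the Tet-Off transgene repressed in the 2 control samples, and its withdrawal for 48 h gave the 2 Ctcfl samples. Doxycycline, Ctcfl and any EGFP made from the same construct therefore differed together and cannot be told apart. There was 1 Affymetrix array per sample, and values are log2 RMA expression, a background-corrected and normalised probe set intensity.

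DNA methylation is copied to new strands by DNMT1 with its guide UHRF1, is laid down afresh by DNMT3A and DNMT3B, and is removed through oxidation by TET enzymes. Polycomb repressive complex 2 (PRC2) methylates histone H3 at silenced developmental genes, and Polycomb repressive complex 1 (PRC1) ubiquitinates histone H2A and compacts chromatin there. Acetyltransferases such as p300 open chromatin, and histone deacetylases reverse their work within corepressor complexes.

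Ctcfl rose from 7.77 and 7.71 on the control arrays to 10.37 and 10.35 on the Ctcfl arrays (log2 change 2.62, SE 0.08, adjusted p = 5.38e-04 by limma). The control values lay above the upper quartiles of those arrays, 7.43 and 7.40. The contrast was therefore of higher against lower Ctcfl signal. Its paralog Ctcf read 9.31 and 9.36 against 9.18 and 9.17 (log2 change -0.16, adjusted p = 0.537 by limma). Arrays within a group had Pearson correlations across genes of 0.997 and 0.996, and arrays of different groups 0.995. Of 8 fibroblast markers, 7 lay above the upper quartile of every array, and Fap did not. All 5 stem and germ cell markers and all 4 endothelial markers lay below the median of every array. The same held for 4 of 5 epithelial markers, but only for 2 of 4 blood and macrophage and 2 of 4 muscle and fat markers. None of the 30 cell type markers passed the test of the groups by limma. At an unadjusted p under 0.05 there were 4 of the 30, against 10.7% of all genes. The fibroblast markers Pdgfrb and Col3a1 were lower (log2 changes -0.56 and -0.38). The epithelial marker Krt8 and the stem cell marker Pou5f1 were higher (0.575 and 0.335). The replicates are numbered but not tied to separate cultures by the labels; the spread that the p-values rest on may therefore be technical.

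No difference of these chromatin genes between the groups passed the test, and their small p-values were about as frequent as among all genes. None of the 55 members passed an adjusted p of 0.05, against 0.0451% of all genes tested (9 genes). At an unadjusted p under 0.05 there were 6 members, or 10.9%, against 10.7% of all genes. These were lower for the deacetylase gene Hdac9, the methylation cofactor gene Dnmt3l, Uhrf1, the Polycomb reader gene Cbx8 and the histone demethylase gene Kdm5b, and higher for the acetyltransferase gene Kat2b. The share of members with such a p was 9.09% on the lower side, against 5.32% of all genes, and 1.82% on the higher side, against 5.36%. A difference of at least 1.2-fold was measured for 2 members, Hdac9 and Dnmt3l, or 3.64% against 8.81% of all genes. Hdac9 alone reached 1.5-fold, which 0.441% of all genes did.

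The intervals bound the differences between these arrays. As the spread they rest on may be technical, they do not bound differences between cultures. The standard error of a member's log2 change ran from 0.08 to 0.13, and for 54 of 55 members the 95% interval of the change lay within 1.5-fold in either direction. Hdac9 was the exception. On simulated arrays of the same design, with 200 changed genes in each set, the test called 7.4% of genes given a log2 change of 0.5. It called 89.1% of those given 1. The adjusted p depends on how many genes have small p-values, and only 9 genes passed on the measured arrays. These rates may therefore be too high for the measured arrays. Differences of 0.5 or less were seldom within reach of the test, and no rate was measured at the size seen for Hdac9.

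**Figure D1:**
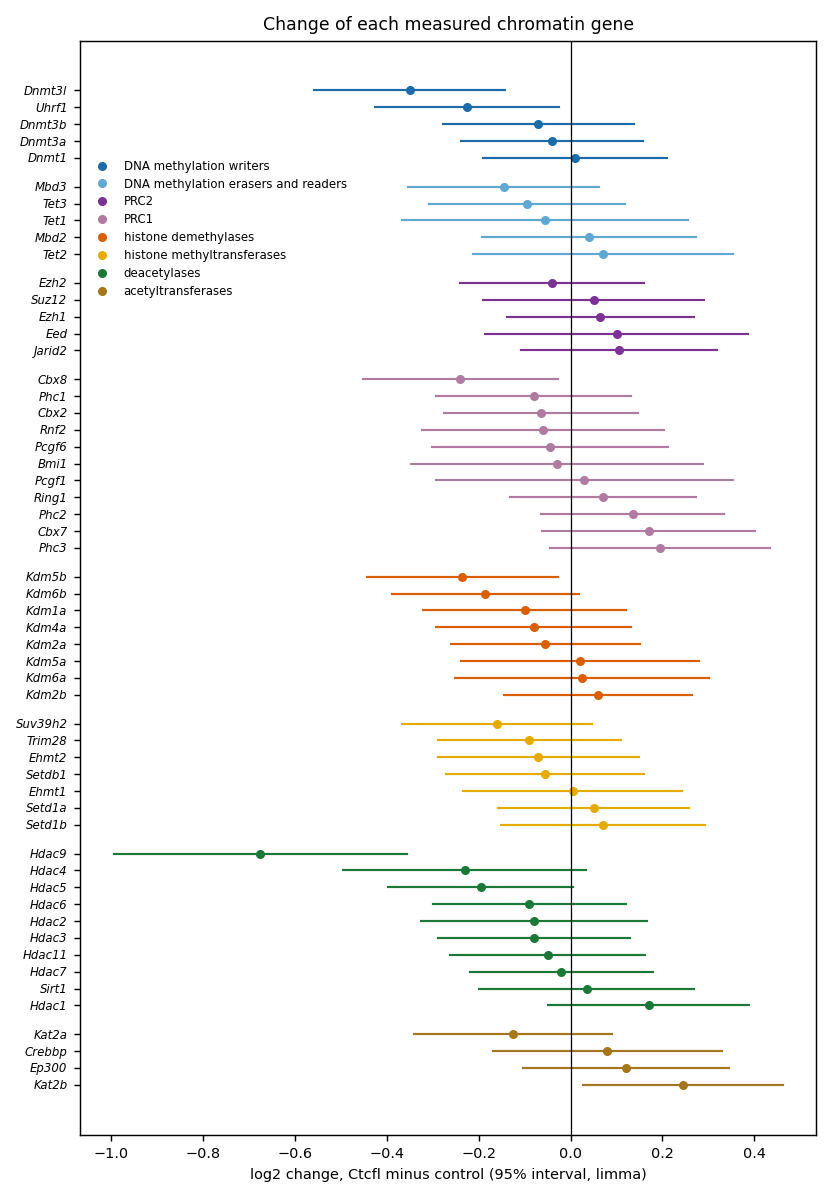
Log2 change (Ctcfl minus control, x axis) of each of the 55 measured members, coloured by class, with the 95% interval from limma over 2 arrays per group. The interval leaves 0 out for 6 members, of which Hdac9 lies farthest from 0 at -0.68 and Kat2b is the only one on the higher side.

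To show the DNA in front of members with an unadjusted p under 0.05, promoter sequences of 5 of the 6 are given here, from RefSeq (GRCm38.p6), as the 250 bases before a transcript start, read 5′ to 3′ on the gene's strand. Hdac9 and Uhrf1 each have a pair of starts in that table, A and B, and Dnmt3l has 3, of which A is shown. Capitals mark AGGGGGC, the core of the CTCF motif, or TTCCCGC, an E2F-like motif, on either strand; no window shown here held TTGGCGC, the other E2F-like motif searched.
Hdac9 promoter A, chr12:34528890-34529139, strand -: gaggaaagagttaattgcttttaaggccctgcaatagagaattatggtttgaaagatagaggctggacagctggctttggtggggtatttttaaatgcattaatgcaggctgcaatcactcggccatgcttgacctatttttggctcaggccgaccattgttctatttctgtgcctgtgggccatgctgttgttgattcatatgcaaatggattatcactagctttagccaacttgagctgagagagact
Hdac9 promoter B, chr12:34917096-34917345, strand -: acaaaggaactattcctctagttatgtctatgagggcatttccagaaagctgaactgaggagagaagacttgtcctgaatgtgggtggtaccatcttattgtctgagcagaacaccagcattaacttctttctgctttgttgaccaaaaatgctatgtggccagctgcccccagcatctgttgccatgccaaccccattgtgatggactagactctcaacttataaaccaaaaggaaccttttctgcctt
Uhrf1 promoter A, chr17:56303087-56303336, strand +: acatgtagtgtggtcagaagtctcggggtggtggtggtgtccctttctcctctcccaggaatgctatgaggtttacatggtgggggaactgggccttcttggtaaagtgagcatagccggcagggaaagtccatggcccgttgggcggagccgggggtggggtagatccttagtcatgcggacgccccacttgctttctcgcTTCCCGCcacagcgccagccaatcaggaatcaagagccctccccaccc
Uhrf1 promoter B, chr17:56304063-56304312, strand +: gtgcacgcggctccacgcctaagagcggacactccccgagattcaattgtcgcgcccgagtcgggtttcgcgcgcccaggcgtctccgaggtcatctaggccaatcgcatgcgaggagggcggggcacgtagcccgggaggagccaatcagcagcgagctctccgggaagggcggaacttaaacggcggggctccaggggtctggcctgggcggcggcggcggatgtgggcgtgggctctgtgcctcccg
Dnmt3l promoter A, chr10:78042037-78042286, strand +: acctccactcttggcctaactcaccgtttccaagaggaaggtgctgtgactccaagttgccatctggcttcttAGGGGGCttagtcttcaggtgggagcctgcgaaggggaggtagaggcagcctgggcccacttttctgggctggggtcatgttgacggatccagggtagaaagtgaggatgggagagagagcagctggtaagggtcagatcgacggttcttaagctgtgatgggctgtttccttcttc
Kdm5b promoter, chr1:134559928-134560177, strand +: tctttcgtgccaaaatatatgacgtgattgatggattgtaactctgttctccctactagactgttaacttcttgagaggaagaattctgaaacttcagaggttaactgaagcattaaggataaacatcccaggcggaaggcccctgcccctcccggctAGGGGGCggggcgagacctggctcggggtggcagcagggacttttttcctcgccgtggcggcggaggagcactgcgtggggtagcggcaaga
Cbx8 promoter, chr11:119040914-119041163, strand -: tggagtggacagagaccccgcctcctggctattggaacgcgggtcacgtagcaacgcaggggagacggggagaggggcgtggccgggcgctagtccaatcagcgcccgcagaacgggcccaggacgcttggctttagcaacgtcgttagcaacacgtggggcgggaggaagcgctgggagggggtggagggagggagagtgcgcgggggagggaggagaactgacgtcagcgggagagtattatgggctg

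Hdac9 and Dnmt3l promoters held few CpG dinucleotides, the substrate of the DNMT enzymes. The observed over expected CpG ratios were 0.17 and 0 for Hdac9 and 0.27, 0.25 and 0.13 for Dnmt3l, against a median of 0.73 over 65 promoters of 46 measured members in the table and 0.58 over 18488 promoters of protein-coding genes on the arrays. The ratio was 0.91 for Cbx8, 0.72 for Kdm5b, 0.45 and 1 for Uhrf1 promoters A and B, and 0.58 and 0.35 for the 2 starts of Kat2b. A ratio above 0.6 was found in 72.3% of member promoters and in 48.5% of the promoters of protein-coding genes on the arrays. Of the 6 members with an unadjusted p under 0.05, Hdac9, Dnmt3l and Kat2b had no promoter above that ratio. The percentages are shares of promoters, and the share of genes without such a promoter was not counted for the members or for all genes.

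AGGGGGC was present in 19 of the 65 promoters of measured members (29.2%), against 12.6% of the promoters of protein-coding genes on the arrays and 9.43% of all promoters in the table. Promoters on chromosome 18 were left out of each of these sets. The motif is itself G-rich, and the GC content of member promoters was also higher (median 64.0% against 56.8%); its part in this share was not tested. Among the 6 members named above it was found at the start of Kdm5b and at 2 of the 3 starts of Dnmt3l. TTCCCGC was present in 4 member promoters (6.15%, against 5.32%), those of Uhrf1 (promoter A), Suz12, Suv39h2 and Trim28, and TTGGCGC in 0 of the 65 (against 2.66%). The motifs are matches of letters, and no binding was measured here.

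Among the writers of DNA methylation, 4 of 5 had lower values in the Ctcfl arrays, with groups that did not overlap. The median log2 change was -0.07, and the median of all genes was 0. Over all members, 32 of 55 were lower (58.2%, against 48.6% of all genes) and 23 higher (41.8%, against 49.9%), with a median of -0.05. Without control replicate 1 the split was 27 lower and 27 higher, with 51.4% of all genes lower. It was 35 and 18 without control replicate 2, 32 and 22 without Ctcfl replicate 1, and 38 and 17 without Ctcfl replicate 2. In those fits 46.9%, 50.1% and 48.1% of all genes were lower. Over the same members, the groups did not overlap for 32 of 55 (58.2%), against 41.1% of all genes, with 22 on the lower side (40%, against 20.6%) and 10 on the higher side (18.2%, against 20.6%). With each array centred on its median, which lowers the change of every gene by 0.03, these counts were 27 and 5, against 26.3% and 15.7% of all genes. Replicates lay closer together for the members: the largest gap within a group had a median of 0.11, against 0.16 for all genes. The median size of the change was 0.08, against 0.095. The part of the closer replicates in the share without overlap was not tested.

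Dnmt3l, which encodes a catalytically inactive partner that guides the DNMT3 enzymes in germ cells, read 4.24 and 4.29 on the control arrays and 3.95 and 3.88 on the Ctcfl arrays. Both Ctcfl arrays lay below both controls, but at the dim end of the arrays, whose lower quartiles were 4.09 to 4.12. The log2 change was -0.35 (SE 0.09, unadjusted p = 0.00585, adjusted p = 0.313 by limma). The germ cell gene Dazl averaged 3.80 on the control arrays and 3.77 on the Ctcfl arrays, and distance from background was not measured for any of these probe sets.

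Uhrf1, which reads hemimethylated CpG sites behind the replication fork and brings DNMT1 to them, read 9.33 and 9.31 in controls and 9.12 and 9.07 in Ctcfl samples. The gap of 0.19 between the groups was larger than the 0.05 between arrays of a group. Its log2 change was -0.23 (SE 0.08, 1.17-fold lower, unadjusted p = 0.034, adjusted p = 0.439 by limma). Its partner Dnmt1, the maintenance methyltransferase, read 9.94 and 9.92 in controls and 9.96 and 9.92 in Ctcfl samples, so those groups overlapped (log2 change 0.01, 95% interval -0.19 to 0.21). UHRF1 is made mainly in dividing cells, and the replication and proliferation genes Mcm2 to Mcm7, Pcna and Mki67, a list set after values were seen, had log2 changes from -0.18 to 0.08 with a median of -0.07 and 7 of 8 lower. Their part in the Uhrf1 difference was not tested. In such bulk RNA, fewer cells with a transcript and less of it per cell cannot be told apart.

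The de novo methyltransferase genes differed little. Dnmt3a read 7.25 on each control array and 7.21 on each Ctcfl array, and Dnmt3b read 5.44 and 5.52 against 5.43 and 5.39. Those groups did not overlap, but by gaps of only 0.04 and 0.01, and the 95% intervals of the log2 changes ran from -0.24 to 0.16 and from -0.28 to 0.14.

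The erasers and readers of DNA methylation had a median log2 change of -0.06 over 5 measured genes. Mbd3, a subunit of the NuRD deacetylase complex, read 9.53 and 9.47 in controls and 9.39 and 9.32 in Ctcfl samples (log2 change -0.15, SE 0.09, adjusted p = 0.583 by limma). Tet3 read 6.52 and 6.47 against 6.45 and 6.35 (log2 change -0.10, SE 0.09, adjusted p = 0.731 by limma). Both lay lower in the Ctcfl arrays without overlap, Tet3 by a gap of 0.02. A second, dimmer Tet3 probe set had a log2 change of 0.04, on the other side of 0. For the dioxygenase genes Tet1 and Tet2 and the methyl-CpG binding gene Mbd2 the groups overlapped, with log2 changes of -0.06, 0.07 and 0.04. The Ctcfl arrays themselves stood 0.31 apart for Tet1 and 0.29 for Tet2, more than either group difference.

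PRC2 genes leaned to the higher side, with a median log2 change of 0.07 and 4 of 5 above 0, though none had an unadjusted p under 0.05. Jarid2, which helps recruit PRC2 to chromatin, read 6.82 and 6.77 in controls and 6.85 and 6.95 in Ctcfl samples (log2 change 0.11, SE 0.09, adjusted p = 0.698 by limma). Eed, the subunit that binds the PRC2 mark, read 8.15 and 7.95 in controls and 8.04 and 8.26 in Ctcfl samples, so its groups overlapped (log2 change 0.10, SE 0.12). A dimmer probe set of Eed had -0.17, and the mean of both probe sets turned the sign to -0.04. Between the paralogous catalytic subunits, Ezh2 had a log2 change of -0.04 and Ezh1 0.07, each with a gap between groups of at most 0.02. The scaffold gene Suz12 had 0.05 with overlapping groups. Without control replicate 2 the class median was 0, and without Ctcfl replicate 2 it was -0.01.

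PRC1 genes were split in direction, 6 lower and 5 higher, with a median of -0.03. Cbx8, a chromodomain subunit that reads the PRC2 mark, read 6.87 and 6.86 in controls and 6.68 and 6.57 in Ctcfl samples (log2 change -0.24, SE 0.09, 1.18-fold lower, unadjusted p = 0.0324, adjusted p = 0.437 by limma). The groups were separated by 0.18, more than the 0.11 between the Ctcfl arrays. Its paralog Cbx2, a neighbour of Cbx8 in the genome, had -0.07 with groups that touched at 7.04. Another paralog, Cbx7, had 0.17 (SE 0.10), with values of 5.77 and 5.92 against 5.97 and 6.06. The 3 measured Cbx genes thus did not share a direction.

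The polyhomeotic genes, whose products polymerise PRC1, were also split. Phc3 read 7.65 and 7.49 in controls and 7.71 and 7.82 in Ctcfl samples (log2 change 0.20, SE 0.10, adjusted p = 0.530 by limma), and its other probe set gave 0.14. Phc2 had 0.14 with non-overlapping groups separated by 0.12, and Phc1 had -0.08. The ubiquitin ligase genes Ring1 and Rnf2 had 0.07 and -0.06, and the ligase cofactor genes Bmi1, Pcgf1 and Pcgf6 had -0.03, 0.03 and -0.05 with overlapping groups. The Ctcfl arrays stood 0.37 apart for Pcgf1, the widest gap within a group among the members. The class median was -0.08 without Ctcfl replicate 2 and 0.09 without Ctcfl replicate 1, so its sign rested on which array was used.

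**Figure D2:**
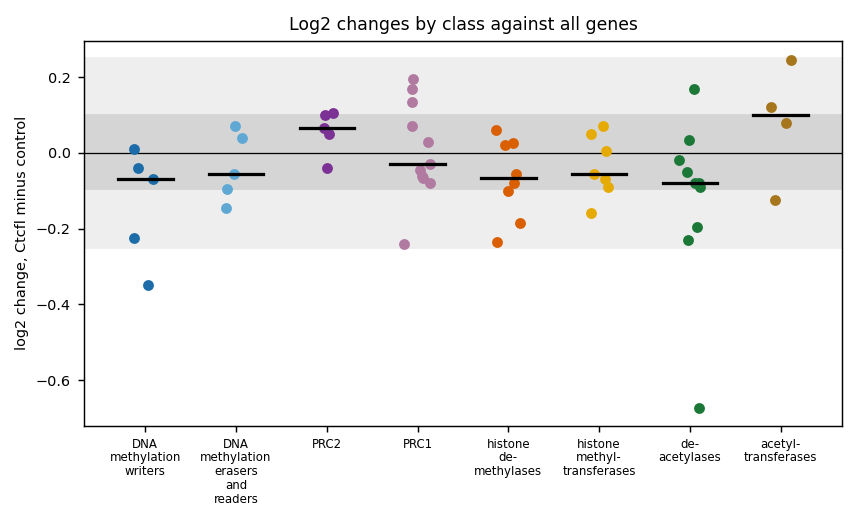
Log2 change (Ctcfl minus control, y axis) of the members by class (x axis), 1 point per gene with the class median as a bar; the dark and light bands hold the middle 50% and 90% of all 19938 genes (-0.10 to 0.10 and -0.25 to 0.25). Only Hdac9 and Dnmt3l lie outside the light band, and class medians run from -0.08 for deacetylases to 0.10 for acetyltransferases.

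Histone demethylase genes had a median log2 change of -0.07, with 5 of 8 lower. Kdm5b, an eraser of the promoter mark on lysine 4 of histone H3, read 6.71 and 6.62 in controls and 6.42 and 6.44 in Ctcfl samples (log2 change -0.24, SE 0.09, 1.18-fold lower, unadjusted p = 0.0325, adjusted p = 0.437 by limma). Both Ctcfl arrays lay 0.18 or more below the controls. Its paralog Kdm5a had 0.02 with overlapping groups. Kdm6b, also called JMJD3, which removes the PRC2 mark, read 6.35 and 6.36 against 6.20 and 6.14 (log2 change -0.19, SE 0.08, adjusted p = 0.492 by limma). Its X-linked paralog Kdm6a, or UTX, had 0.03, and its control arrays stood 0.26 apart. The other demethylases Kdm1a, Kdm2a, Kdm2b and Kdm4a ranged from -0.10 to 0.06.

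Histone methyltransferase genes and their cofactor Trim28 had a median of -0.06, with 4 of 7 lower and none at an unadjusted p under 0.05. Suv39h2, which writes the heterochromatin mark on lysine 9 of histone H3, read 7.65 and 7.67 in controls and 7.54 and 7.46 in Ctcfl samples (log2 change -0.16, SE 0.09, adjusted p = 0.544 by limma). Trim28, or KAP1, which brings Setdb1 to zinc finger repressors, read 10.03 and 10.06 against 9.96 and 9.95 (log2 change -0.09, SE 0.08, adjusted p = 0.729 by limma). These were the only genes of the class whose groups did not overlap (28.6%, against 41.1% of all genes), and both were lower. Setdb1 itself had -0.06, the partner enzymes Ehmt1 and Ehmt2 had 0.01 and -0.07, and the subunit genes Setd1a and Setd1b had 0.05 and 0.07. The intervals of these 5 genes stayed between -0.29 and 0.29. A second, dimmer Setd1b probe set had a log2 change of -0.035, on the other side of 0.

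Deacetylases were lower for 8 of 10 genes, with a median of -0.08. Hdac9, a class IIa deacetylase that represses MEF2 transcription factors, read 6.08 and 6.42 on the control arrays and 5.51 and 5.64 on the Ctcfl arrays. The groups were 0.44 apart at their nearest, while the control arrays differed by 0.34 from each other. The log2 change was -0.68 (SE 0.13, 95% interval -0.99 to -0.36, 1.60-fold lower, unadjusted p = 0.00195, adjusted p = 0.241 by limma). With an intensity trend and robust variances Hdac9 passed (adjusted p = 0.0103 by limma), where 479 genes did, and over all alternatives its adjusted p ran from 0.0103 to 0.651. The log2 change was -0.85 without control replicate 1 and -0.51 without control replicate 2.

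The other class IIa genes had lower values too. Hdac5 read 7.63 and 7.58 in controls and 7.42 and 7.40 in Ctcfl samples (log2 change -0.20, SE 0.08, adjusted p = 0.474 by limma), and Hdac4 read 7.43 and 7.25 against 7.20 and 7.02 (log2 change -0.23, SE 0.11, adjusted p = 0.509 by limma). Hdac7 had -0.02, with 8.25 and 8.23 against 8.22 and 8.22. In each of these 4 genes both Ctcfl arrays lay below both controls, as they did for 20.6% of all genes. The gaps of 0.01 for Hdac7 and 0.05 for Hdac4 were smaller than the 0.02 and 0.18 between arrays of a group. Hdac4 had -0.14 without control replicate 1 or without Ctcfl replicate 2, and -0.32 without control replicate 2 or without Ctcfl replicate 1. A second Hdac4 probe set gave -0.15. The subgroup was singled out after values were seen, and no gene of it passed.

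Class I deacetylases, the catalytic subunits of the Sin3, NuRD and NCoR complexes, were not alike in sign. Hdac1 read 10.33 and 10.30 in controls and 10.42 and 10.55 in Ctcfl samples (log2 change 0.17, SE 0.09, adjusted p = 0.544 by limma), and its second probe set gave 0.18. Its close paralog Hdac2 had -0.08 with overlapping groups, and Hdac3 had -0.08 with a gap of 0.02. The tubulin deacetylase gene Hdac6 had -0.09, Hdac11 -0.05 and the NAD-dependent Sirt1 0.04. Sirt1 was among 4 members, with Dnmt3l, Tet1 and Tet2, that lay below the median of every array, while the other 51 lay above it on all 4.

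Acetyltransferases were higher for 3 of 4 genes, with a median of 0.10. Kat2b, or PCAF, a catalytic subunit of SAGA-type complexes, read 7.53 and 7.48 in controls and 7.69 and 7.81 in Ctcfl samples (log2 change 0.25, SE 0.09, 1.19-fold higher, unadjusted p = 0.0328, adjusted p = 0.437 by limma). Its paralog Kat2a, or GCN5, which takes the same place in those complexes, read 8.67 and 8.55 against 8.48 and 8.49 (log2 change -0.13, SE 0.09, adjusted p = 0.644 by limma). The paralogs thus lay on opposite sides of their controls, each without overlap; the difference between them was not tested, and Kat2a had -0.07 without control replicate 1. The coactivator genes Ep300 and Crebbp had 0.12 and 0.08, the latter with overlapping groups. Without Ctcfl replicate 2 the class median was 0.02, and without Ctcfl replicate 1 it was 0.19.

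**Figure D3:**
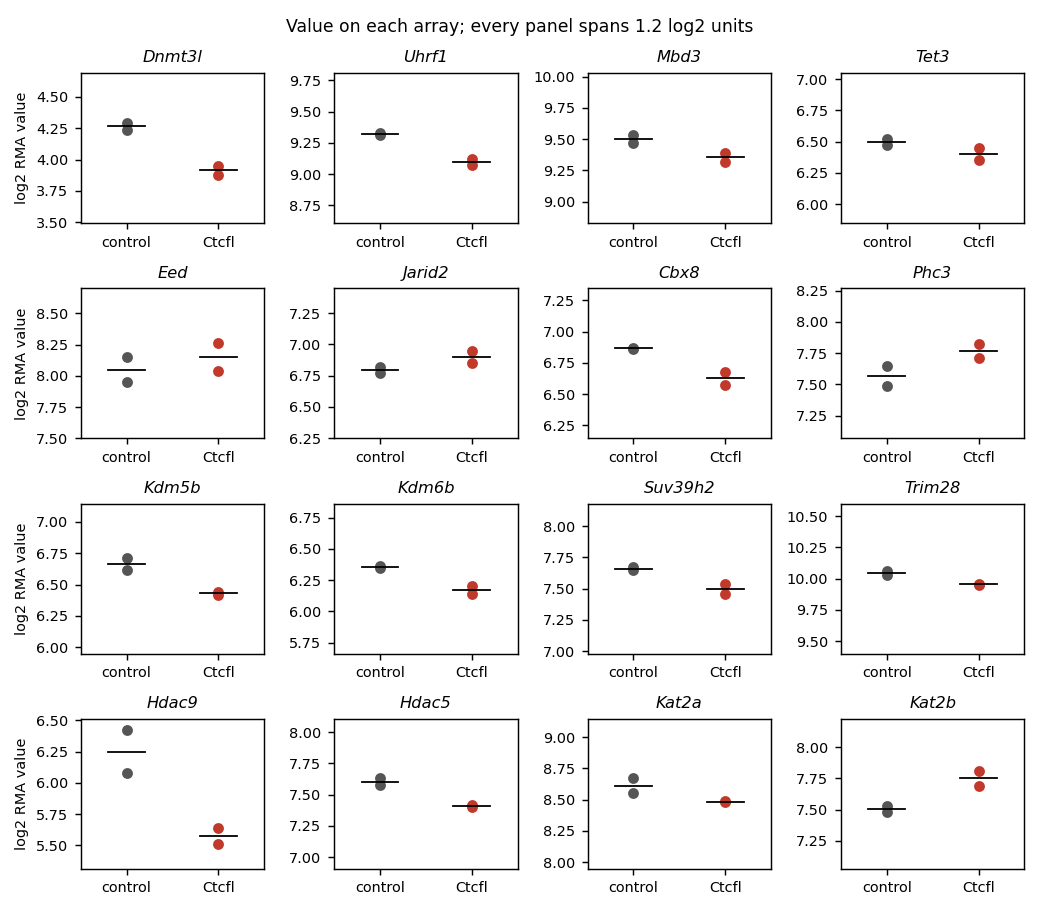
Log2 RMA value on each array (y axis, every panel spanning the same range) for the 16 members with the smallest p in their class, 2 control points in grey and 2 Ctcfl points in red with the group mean as a line. Hdac9 shows the widest separation, from 6.08 and 6.42 to 5.51 and 5.64, and only for Eed do the groups overlap.

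For 13 members the gap between the groups exceeded the largest gap within either group, or 23.6% against 15.1% of all genes. The others were separated less from the controls than their own replicates from each other. The largest gap within a group had a median of 0.11 over the members and 0.16 over all genes. Its part in the share of 23.6% was not tested. The direction of these gaps was looked at after values were seen, and replicate numbers are not known to pair arrays of different groups. Control replicate 1 lay above control replicate 2 and Ctcfl replicate 2 above Ctcfl replicate 1 for 21 of 55 members (38.2%), against 24.0% of all genes. These held 4 of 5 PRC2 genes, all 4 acetyltransferases and 5 of 11 PRC1 genes, but 0 of 5 writers of DNA methylation. Some members were counted on very small differences, such as Kat2a with 8.48 and 8.49 on the Ctcfl arrays. Bmi1 had 8.60 and 8.40 in controls and 8.32 and 8.62 in Ctcfl samples, and Suz12 had 9.42 and 9.30 against 9.33 and 9.49. For both genes the sign of the group difference turned with the array left out: without Ctcfl replicate 1 the log2 change was 0.12 for Bmi1 and 0.13 for Suz12, and without Ctcfl replicate 2 it was -0.18 and -0.03.

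**Figure D4:**
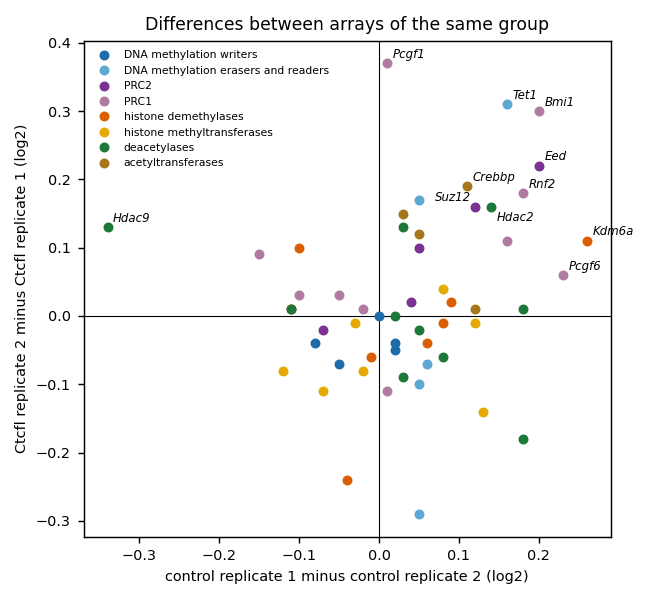
Difference between the control arrays (x axis, replicate 1 minus 2, log2) against the difference between the Ctcfl arrays (y axis, replicate 2 minus 1, log2), 1 point per member. The upper right field holds 21 members, among them Bmi1, Eed, Rnf2 and Suz12, while Hdac9 lies apart at the left with control arrays 0.34 apart.

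Beyond the members, 98 of 103 further chromatin genes of the same pathways were measured. None passed an adjusted p of 0.05, and 8 had an unadjusted p under 0.05 (8.16%, against 10.7% of all genes), 1 lower and 7 higher. The median log2 change of the 98 genes was 0.01. Their groups did not overlap for 19 on the lower and 28 on the higher side, or 48.0% together, against 20.6% on each side and 41.1% together of all genes. Setd7, a lysine methyltransferase of histones and other proteins, read 7.21 and 7.16 in controls and 7.53 and 7.67 in Ctcfl samples (log2 change 0.42, SE 0.09, adjusted p = 0.277 by limma). Chd3, a remodelling ATPase of NuRD, read 7.90 and 7.88 against 8.22 and 8.24 (log2 change 0.34, SE 0.08, adjusted p = 0.313 by limma), tight pairs on either side. Sap30, a subunit of the Sin3 deacetylase complex, read 6.17 and 6.19 against 5.70 and 5.90 and was the gene on the lower side (log2 change -0.38, SE 0.10, adjusted p = 0.342 by limma). The DNA damage-inducible gene Gadd45g had 0.38, the demethylase gene Kdm3b 0.31, the sirtuin gene Sirt7 0.30, the SAGA and NuA4 scaffold gene Trrap 0.28 and the Polycomb gene Scmh1 0.28. The 18 further deacetylases and subunits of their complexes in that list had a median of 0.05.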

How the data were processed

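RNA from 2 control and 2 Ctcfl samples was measured on 1-colour Affymetrix arrays. The deposited log2 values are RMA values made by the authors with Expression Console, per the labels; its version and settings are not given in the sources used here. Of 35511 probe sets with values, 21789 had 1 gene symbol in the platform annotation, 1621 had several and 12101 had none listed and stayed unnamed. Each of 19938 genes was represented by its brightest probe set, and no filter on dim genes was applied.

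The test was limma (version 3.58.1, R 4.3.3), fitted to all genes (two-sided, Benjamini-Hochberg, threshold 0.05; prior degrees of freedom 4.21). It was tried on 20 simulated data sets with 200 changed genes each, where 5.63% of calls were false; the variances followed the model's own prior. The members, classes and further gene lists were chosen with earlier results of these data known. Values on every array were given for members with an unadjusted p under 0.05 and the 2 smallest p per class, and Ctcfl, Ctcf, Dnmt1, Dnmt3a, Dnmt3b, Cbx7, Hdac1, Hdac4, Hdac7, Bmi1 and Suz12 were added, the last 9 after values were seen. Of the further genes, the 8 with the smallest p were named. Promoters came from RefSeq (GRCm38.p6) for 46 measured members. Those on chromosome 18, where Mbd2 and Hdac3 lie, were left out of all promoter counts, for members and comparison sets alike. Figures used matplotlib 3.10.9. The number of arrays limits the precision.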

Additional observations from a re-analysis of the deposited data

How the results depend on the processing

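The direction held for the 16 members with values by rule under every alternative that kept them (Dnmt3l was left out with the dimmest genes), except Eed, which turned to -0.035 with the mean of its probe sets and ran from -0.01 to 0.21 when 1 array was left out, lowest without Ctcfl replicate 2. Besides Eed, leaving out 1 array moved the log2 change by over 1.5 times for Tet3 (-0.145 to -0.045), Jarid2 (0.055 to 0.155), Phc3 (0.115 to 0.275) and Kat2a (-0.185 to -0.065), smallest without Ctcfl replicate 2 for Tet3 and Jarid2, control replicate 2 for Phc3 and control replicate 1 for Kat2a. Limma called 9 genes, but 20 (0 members) without the dimmest 33.3% of genes, 479 (1 member, Hdac9) with an intensity trend and robust variances, 0 (1327 named genes unadjusted) in a fit over all probe sets and 0 (1329 to 1663 unadjusted) without any 1 array, where the lone array is assumed to vary like the other group. Replicate numbers are not known to pair samples; deviations of same-numbered arrays correlated at -0.10. With a replicate block limma called 0 genes (1468 unadjusted) and 0 members (2 unadjusted). A crossed pairing, added after seeing the data, also gave 0 genes (2105 unadjusted) and 0 members (6 unadjusted). With median centring the median log2 change was -0.075 over the members, -0.10 for writers of DNA methylation, -0.10 for demethylases and -0.11 for deacetylases. Over the fits that leave out 1 array, it ran from -0.05 to 0 for the members, -0.11 to -0.04 for writers, -0.12 to 0.025 for erasers and readers, -0.01 to 0.13 for PRC2, -0.08 to 0.085 for PRC1, -0.065 to 0.005 for methyltransferases, -0.112 to -0.057 for deacetylases and 0.015 to 0.185 for acetyltransferases. The cause was not tested. No detection calls were used, so dim values such as those of Dnmt3l and Sirt1 have no known distance from background.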
